A study of Mus musculus with 2 samples.

Results

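Nuclear receptors and the coregulators that work with them were described in 2 populations of mouse peritoneal macrophages. The set held 33 genes, 24 receptors and 9 coregulators, listed by name, with earlier results of these data known when it was drawn up. Every probe set (a group of array probes that reads the same transcript) was taken if the platform annotation tied it to a single gene and that gene was on the list. This gave 90 probe sets for 31 of the 33 genes, out of 18193 genes named in this way on the array. No probe set named Nr1h2 or Ncor1 alone, so the second liver X receptor and the corepressor NCoR were not analysed here.

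The elicited array held RNA from peritoneal macrophages of C57BL/6J mice, 8 weeks old, taken 3 days after 1 mL of 3% thioglycollate, a sterile irritant broth, had been put into the cavity. The resident array held RNA from peritoneal macrophages of untreated mice of the same strain and age. Cells of both groups were plated, left to adhere for 2 h and washed, although the series' design text mentions culture overnight instead, which makes the time in the dish uncertain. How many mice stood behind each array, the hour of collection and any sorting were not known here, so each group is an adherent population and not a purified cell type. With 1 array a group there was no replicate, and the spread between animals was not measured.

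Values are MAS5 signal intensities on a linear scale, and differences are log2 ratios of elicited over resident signal, set against a threshold of 2-fold. A signal of 82.2, the 95th percentile of 126 probe sets for olfactory, vomeronasal, taste receptor and keratin-associated genes, was used as the floor, below which a signal was not told apart from background. A signal under the floor was set to it, and a ratio against it is therefore a bound, given as "at least". Where a gene had several probe sets, the brightest represented it and the others are given as a check. The SD of log2 ratios between probe sets of the same gene was 0.48 (1.40-fold) over 4465 genes, which covers probe differences only. Signals of different probe sets depend on the probes and are not compared between genes.

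Of 9 macrophage markers with a probe set, 9 were above the floor on both arrays, with summed signals of 171510 in elicited and 168146 in resident macrophages. They differed in both directions. Itgam, the integrin CD11b, was 2.99-fold lower, the endotoxin co-receptor gene Cd14 2.73-fold lower and the Fc receptor gene Fcgr1 2.55-fold higher, and the other 6 lay within 2-fold (median of all 9 -0.20). Markers of other cells differed more. Of 9 B cell markers above the floor, 7 were lower by 2-fold or more (77.8%, against 11.8% of all genes above the floor). Their summed signals were 4954 in elicited and 24652 in resident macrophages. Cd79a and Ebf1, both among the lower ones, passed the floor in resident macrophages alone, so their ratios could only be below 0. Of markers above the floor, those of mast cells were lower in 5 of 5 (summed signals of 145 in elicited and 2503 in resident macrophages), dendritic cell markers in 3 of 4 (307 in elicited, 1607 in resident) and T cell markers in 3 of 5 (465 in elicited, 1271 in resident). All 5 mast cell, all 4 dendritic cell and 4 of the 5 T cell markers passed the floor in resident macrophages alone, so their ratios could only be below 0. Mesothelial and fibroblast markers were at least 2-fold higher in 8 of 11, of which 4 passed the floor in resident macrophages, with summed signals of 16504 in elicited and 773 in resident macrophages. No marker had a signal of exactly 0. In such bulk RNA, fewer cells of a type and less RNA per cell cannot be told apart, and the part that these other cells play in the values below was not tested.

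Nuclear receptors are transcription factors that bind small lipid-soluble ligands such as fatty acids, oxysterols, retinoids, thyroid hormone and steroids, and some have no known ligand. Many bind DNA next to a retinoid X receptor (RXR) as an obligate partner. Ligand swaps corepressors such as NCoR for coactivators of the steroid receptor coactivator family. In macrophages, the peroxisome proliferator-activated receptors (PPARs) and liver X receptors (LXRs) are known for lipid uptake, storage and sterol efflux, and for restraint of inflammatory genes.

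Most of the set lay below 0 on the log2 scale, 10 genes by 2-fold or more, while Pparg, Nr1h3 and Ncoa4 were at least 2-fold higher. Of the 31 genes with a probe set, 28 passed the floor on at least 1 array, 25 of them on both. Of these 28, 10 were at least 2-fold lower (35.7%), against 11.8% of all 11499 genes above the floor. The 10 were Nr4a1, Nrip1, Ppargc1b, Rora, Ncoa1, Nr1d2, Nr2c2, Ncoa2, Rara and Nr1d1. The 3 genes at least 2-fold higher are a share near the 8.04% of all genes. Below 0 lay 25 of the 28 log2 ratios, and their median was -0.64, against -0.03 for all genes. Of 28, 3 genes (Ppara, Nr1d1 and Nr4a3) passed the floor in resident macrophages alone, so their ratios could only be below 0.

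**Figure D1:**
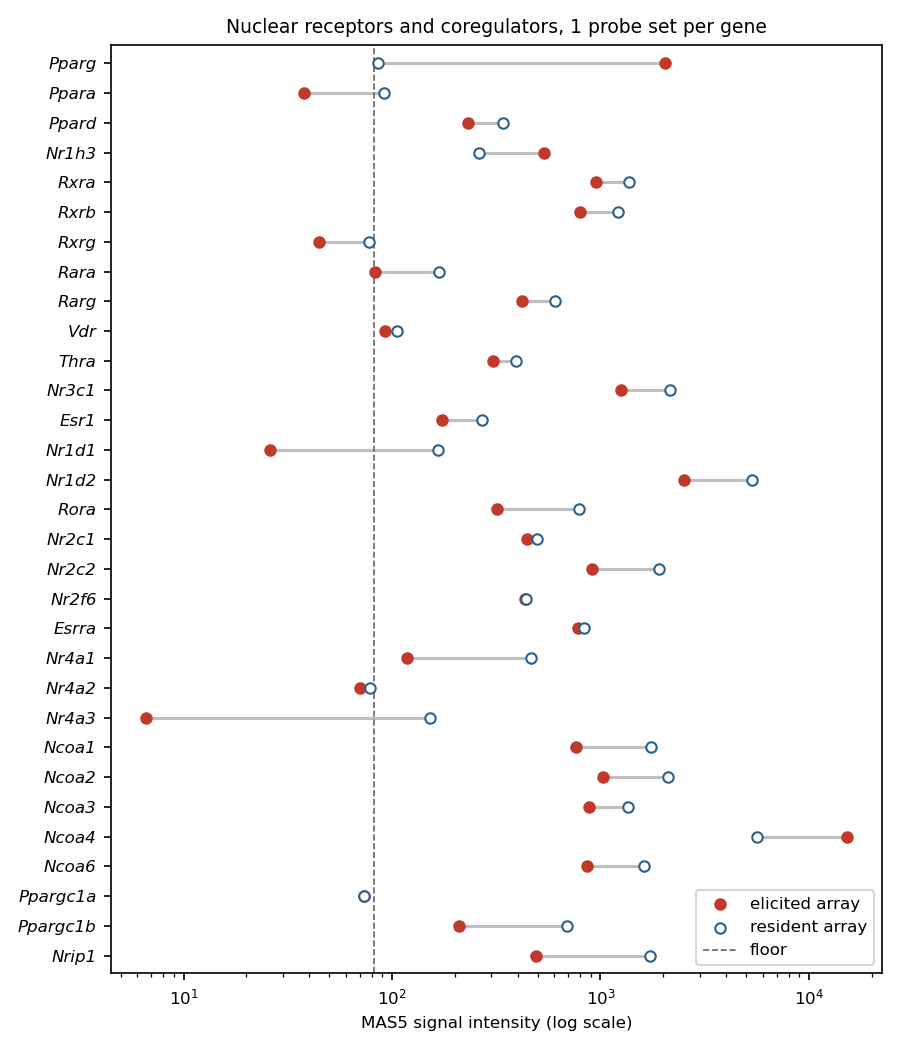
Signal intensity (log axis) of the probe set that represents each of 31 genes, with the elicited array as filled red points and the resident array as open blue points, 1 array each; the dashed line is the floor of 82.2. The elicited point lies to the right for Pparg, Nr1h3 and Ncoa4, and left of or on top of the resident point for the others. Positions along the axis are not comparable between genes.

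Single probe sets showed the same picture. Of the 90, 66 passed the floor on at least 1 array, and 27 of these 66 were at least 2-fold lower, against 15.2% of all 21118 probe sets above the floor. Those at least 2-fold higher numbered 4, against 6.65% of all. In 17 genes 2 or more probe sets were above the floor, and 15 of these 17 had every such probe set on the same side of 0. The exceptions were Nr2c2 and Nr2f6. Some probe sets passed the floor in resident macrophages alone, among them probe sets of Thra, Vdr, Esr1, Rora, Ncoa2 and Nrip1. These could only be below 0, and they are included in the counts of lower and agreeing probe sets. The probe set of Nr2c2 above 0 passed the floor in elicited macrophages alone, so it could only be above 0. Probe sets of a gene share its RNA and are not replicates of a condition.

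**Figure D2:**
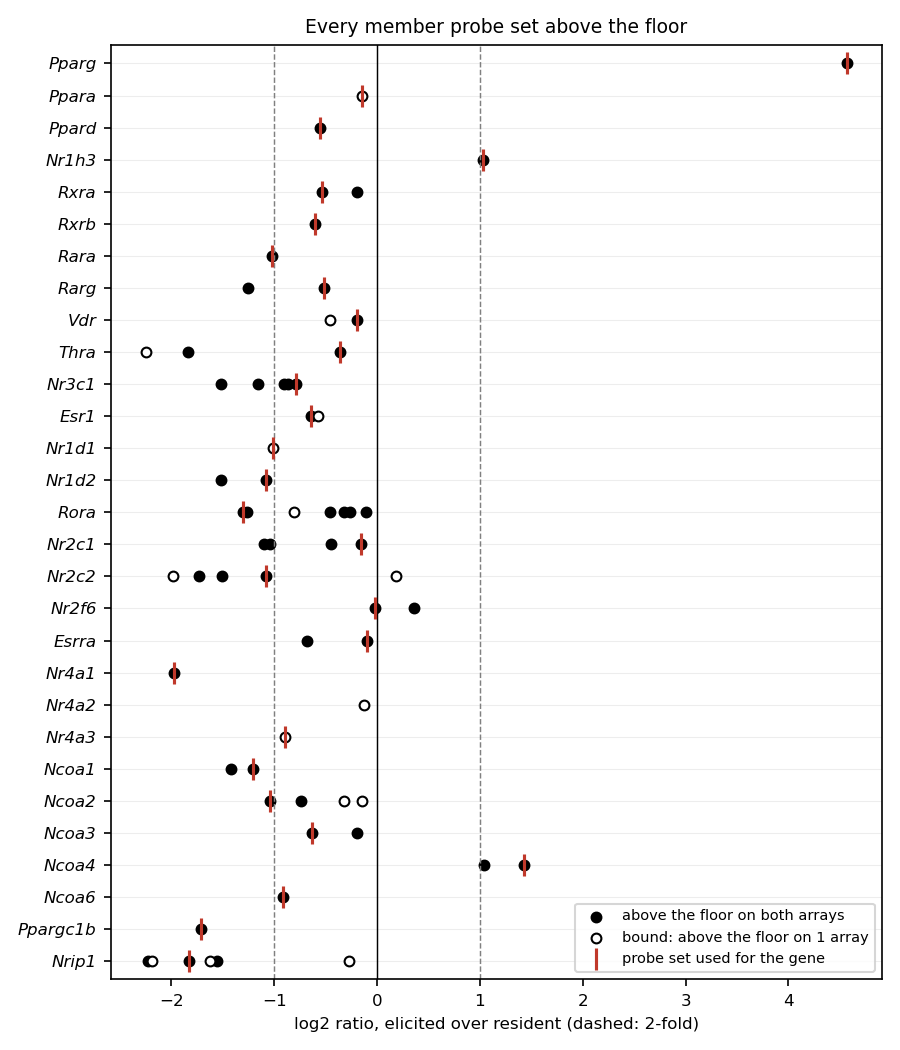
Log2 ratio of elicited over resident signal for each of the 66 member probe sets above the floor, 1 row a gene; filled points were above the floor on both arrays, open points are bounds, and the red tick marks the probe set used for the gene. Most points lie between 0 and -2.24, with Pparg at 4.57.

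The size of these differences depended on how the arrays were scaled to each other. The all-gene median log2 ratio, -0.03 in the deposited values, ran from -0.33 when the spiked hybridisation controls were set equal to 0.25 when probe sets above the floor had equal medians. Over the same scalings the median of the set ran from -0.94 to -0.33, which was 0.54 to 0.61 below the median of all genes each time. The count of genes at least 2-fold lower was 10 as deposited, 13 with hybridisation controls, 5 with loess, 5 with quantile normalization and 3 with equal medians. As shares of the genes above the floor, these were 41.9% of the set against 19.4% of all genes with hybridisation controls, and 17.9% against 8.84% with loess. They were 17.2% against 8.01% with quantile normalization and 11.1% against 7.34% with equal medians, so with equal medians the share was near that of all genes. The count of higher genes was 3 as deposited, 2 with hybridisation controls and 3 with each of the other scalings. Pparg and Ncoa4 were at least 2-fold higher, and Nr4a1, Nrip1 and Ppargc1b at least 2-fold lower, under the deposited values and all 4 other scalings. Over all genes, the share of higher genes among those at least 2-fold apart was 40.5% as deposited, 19.7% with hybridisation controls, 52.7% with loess, 57.9% with quantile normalization and 66.0% with equal medians.

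**Figure D3:**
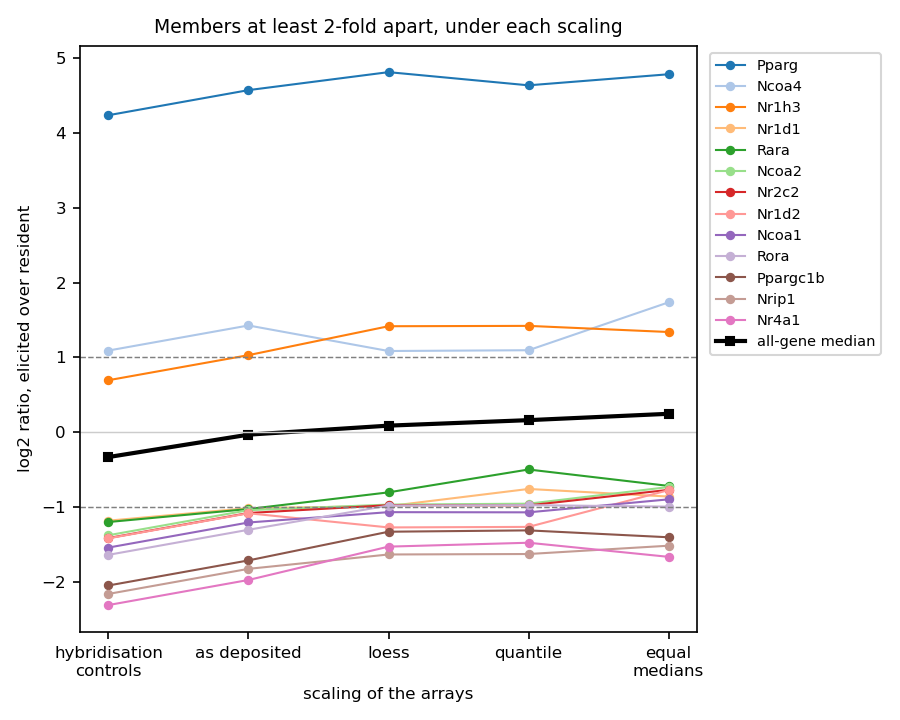
Log2 ratio of elicited over resident signal (y axis) of the 13 genes at least 2-fold apart under 5 scalings of the arrays (x axis), with the median of all genes in black; lines link values of the same gene and dashed lines mark 2-fold. Pparg, Ncoa4, Nr4a1, Nrip1 and Ppargc1b stay outside the dashed lines throughout, and Nr1h3 lies inside when the hybridisation controls are set equal.

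Pparg had the largest difference of the set. This fatty acid receptor drives fat storage in adipocytes and lipid handling in macrophages. Its only probe set had a signal of 2030 in elicited and 85.5 in resident macrophages, a 23.7-fold difference (log2 ratio 4.57). The resident signal lay just above the floor of 82.2 and below 92.7, the 95th percentile of the same silent families on the resident array alone, so on that floor the log2 ratio is a lower bound of 4.45. The ratio ran from 4.23 to 4.81 over the scalings. Mesothelial and fibroblast markers were also higher on the elicited array (above), and their part in the Pparg value was not tested. Of 7 adipocyte markers with a probe set, 3 were above the floor, and they went both ways. The glucose transporter gene Slc2a4 was at least 2.21-fold higher, the lipase gene Lipe 2.87-fold lower and the hormone gene Retn at least 1.79-fold lower, with summed signals of 428 in elicited and 619 in resident macrophages over the list. Adipoq, the adipocyte hormone adiponectin, was under the floor, with 26.5 in elicited and 31.8 in resident macrophages.

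RefSeq lists 3 starts for Pparg in the GRCm38.p6 build, and the single probe set does not tell which of them was in use. Their windows, from 250 bases before to 50 after each start, are shown because this gene differed most. Capitals mark AGGTCA, the hexamer that many nuclear receptors recognise, searched on both strands. The windows lie on chromosome 6, plus strand, at chr6:115360894-115361193, chr6:115362099-115362398 and chr6:115421816-115422115.
Pparg, start 1: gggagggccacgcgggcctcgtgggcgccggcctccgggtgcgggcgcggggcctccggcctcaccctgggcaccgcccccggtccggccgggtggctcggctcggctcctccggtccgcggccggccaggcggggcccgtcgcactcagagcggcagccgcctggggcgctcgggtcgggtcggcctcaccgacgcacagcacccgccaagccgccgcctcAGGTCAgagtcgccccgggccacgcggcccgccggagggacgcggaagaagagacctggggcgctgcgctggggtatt
Pparg, start 2: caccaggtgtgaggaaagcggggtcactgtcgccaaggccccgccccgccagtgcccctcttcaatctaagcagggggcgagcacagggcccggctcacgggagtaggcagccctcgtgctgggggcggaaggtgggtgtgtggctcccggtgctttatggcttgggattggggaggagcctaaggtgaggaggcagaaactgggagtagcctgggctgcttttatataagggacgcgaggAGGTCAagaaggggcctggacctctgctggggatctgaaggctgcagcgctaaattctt
Pparg, start 3: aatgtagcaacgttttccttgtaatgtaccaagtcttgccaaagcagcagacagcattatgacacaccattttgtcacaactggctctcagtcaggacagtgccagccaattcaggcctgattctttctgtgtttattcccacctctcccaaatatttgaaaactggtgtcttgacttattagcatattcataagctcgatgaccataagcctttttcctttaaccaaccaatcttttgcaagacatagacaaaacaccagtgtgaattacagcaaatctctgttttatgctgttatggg
Counted from the start, the hexamer stands at position -28 in the window of start 1 and at -9 in that of start 2, and is not in that of start 3. It occurred in 16.3% of all 32851 promoter windows in the table. Among the 43 windows listed for 28 genes of the set, 9 held it, from the genes Ncoa4, Ncoa6, Nr1d2, Pparg, Rara, Rarg, Rxra and Rxrg. The repeats AGGTCANAGGTCA, a PPAR-type element, and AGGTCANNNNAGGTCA, an LXR-type element, each contain the hexamer. They were in none of the 43 windows, and in 13 and 5 of all windows. A match is only these letters in a window, and a window without a match says nothing of the factor.

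The other PPARs were not higher. Ppard, the widely expressed beta/delta form, had signals of 233 in elicited and 342 in resident macrophages, a log2 ratio of -0.56. Its other probe set was under the floor on both arrays. Ppara, the form that drives fatty acid oxidation in liver, had 37.7 in elicited and 91.1 in resident macrophages in the brightest of its 3 probe sets, with the other 2 under the floor. The resident value of Ppara was also below 92.7, so it was not told apart from background there.

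Genes known as PPAR targets lay mostly above 0 on the log2 scale, and by their brightest probe sets mostly within 2-fold. Of 20 listed, 17 had a probe set and 15 were above the floor. Of these 15, 1 was at least 2-fold higher (6.67%, against 8.04% of all genes) and 0 were lower, 14 had a log2 ratio above 0, and the median was 0.60, against -0.03 for all genes. Ehhadh and Acot1 passed the floor in elicited macrophages alone, so their ratios could only be above 0. Among the 13 genes above it on both arrays, 1 was higher, 0 were lower and the median was 0.60. Plin2, the coat protein of lipid droplets, had signals of 37050 in elicited and 12766 in resident macrophages (2.90-fold). Lpl, lipoprotein lipase, was 1.78-fold higher, Acadl, an acyl-CoA dehydrogenase of fatty acid oxidation, 1.78-fold, and Cd36, a fatty acid and oxidised lipoprotein receptor, 1.73-fold. Other probe sets passed 2-fold for Lpl (up to 1.44), Cd36 (up to 1.52) and Fabp5 (up to 1.07). By the largest ratio of each gene, 4 of 15 were at least 2-fold higher and 0 lower. Of all genes, 9.08% were higher by that measure. By the mean of its probe sets, 3 of 15 were higher and 0 lower, against 6.89% of all genes higher. Cpt1a, the gate of fatty acid entry into mitochondria, had 2783 in elicited and 2798 in resident macrophages. Pdk4 and Cidec, 2 further targets, were under the floor on both. Ratios also tended to be higher among bright genes in general, with a median of 0.41 among the 982 brightest of the genes that passed the floor on both arrays. With that trend removed by loess the median of the PPAR targets was 0.34, against 0.09 for all genes, and over all scalings it ran from 0.29 to 0.86, with 1 to 5 genes at least 2-fold higher.

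Nr1h3 encodes LXR-alpha, an oxysterol receptor known for inducing sterol efflux genes. Its only probe set had a signal of 535 in elicited and 262 in resident macrophages, which is 2.04-fold higher (log2 ratio 1.03). It stood at the threshold, and the log2 ratio was 0.70 with the hybridisation controls set equal and 1.42 at most over the scalings.

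The LXR target genes did not follow one direction. Of 20 listed, 18 were above the floor, and 8 of these were at least 2-fold lower, 2 were higher and 8 lay within 2-fold; the median was -0.72. The lower genes are 44.4% of the list, against 11.8% of all genes, and the higher ones 11.1%, against 8.04%. Mlxipl and Apoc4 passed the floor in resident macrophages alone, and among the 16 genes above it on both arrays 6 were lower, with a median of -0.50. The cholesterol exporter genes split. Abcg1 had signals of 5320 in elicited and 1156 in resident macrophages (4.60-fold higher), whereas Abca1 had 3687 in elicited and 11871 in resident macrophages (3.22-fold lower). Their probe sets agreed in direction, from 1.70 to 2.20 for the 2 of Abcg1 and from -3.36 to -1.69 for the 3 of Abca1. Mylip, a ligase that degrades the LDL receptor, was 2.49-fold lower. Genes of fatty acid synthesis were among the lower ones. Mlxipl, the carbohydrate-response factor ChREBP, was at least 13.7-fold lower, with 37.9 in elicited and 1122 in resident macrophages. Scd1, a fatty acid desaturase, was 10.0-fold lower by its brightest probe set, and its 2 probe sets gave -3.32 and -0.93. Fasn, fatty acid synthase, was 4.14-fold lower, while Srebf1, the lipogenic factor that LXR induces, had 1379 in elicited and 1388 in resident macrophages. Of the apolipoprotein cluster, Apoc1 was 10.8-fold, Apoc4 at least 9.36-fold and Apoc2 3.95-fold lower, and Apoe lay at a log2 ratio of 0.08. The other higher gene was Cd5l, an apoptosis inhibitor of macrophages (5.58-fold). Over the scalings the list median ran from -1.06 to -0.42, with 8 or 9 genes lower and 2 higher each time.

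**Figure D4:**
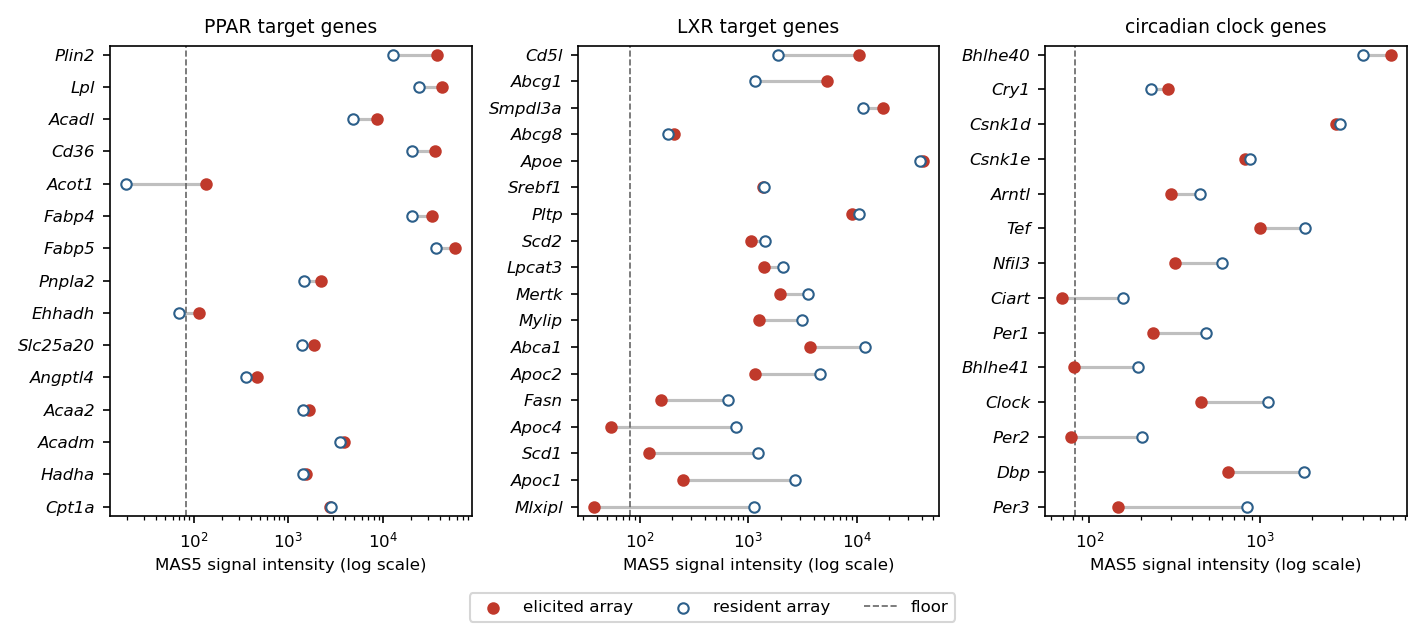
Signal intensity (log axis) of PPAR target, LXR target and circadian clock genes above the floor on at least 1 array, sorted by ratio, with the elicited array as filled red and the resident array as open blue points, 1 array each; the dashed line is the floor of 82.2. The elicited points lie to the right for nearly all PPAR targets, on either side for LXR targets, and to the left for 12 of 14 clock genes.

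The RXR partners lay slightly below 0. Rxra had signals of 947 in elicited and 1370 in resident macrophages, a log2 ratio of -0.53, and its second probe set above the floor gave -0.19. Rxrb had 799 in elicited and 1211 in resident macrophages (-0.60). Rxrg, the form of muscle and brain, was under the floor on both, with 44.8 in elicited and 77.5 in resident macrophages. The shortfall of Rxra and Rxrb was close to the probe set SD of 0.48.

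Among receptors for retinoic acid, vitamin D and thyroid hormone, Rara alone passed 2-fold by its brightest probe set. Rara, the alpha retinoic acid receptor, had signals of 82.5 in elicited and 168 in resident macrophages (2.03-fold lower). The elicited value was at the floor, and the log2 ratio ran from -1.20 to -0.50 over the scalings. Rarg had 422 in elicited and 604 in resident macrophages (-0.52), with -1.25 from its second probe set. Vdr, the vitamin D receptor, had 92.0 in elicited and 106 in resident macrophages, and its sign turned over the scalings (-0.53 to 0.31).

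The probe sets of Thra, the alpha thyroid hormone receptor, disagreed in size. The brightest had 306 in elicited and 393 in resident macrophages (-0.36, and up to 0.05 over the scalings). A second had 90.9 in elicited and 325 in resident macrophages, 3.58-fold lower. The third had 74.1 in elicited and 389 in resident macrophages, at least 4.74-fold lower. Thra and Nr1d1 overlap by 1075 bases in the RefSeq table, and which transcripts each probe set reads was not examined here.

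Of 22 genes of retinoid metabolism and response, 11 were above the floor. Of these, 4 were at least 2-fold higher (36.4%, against 8.04% of all genes) and 1 was lower (9.09%, against 11.8%). The median of 0.12 turned to -0.21 with the hybridisation controls set equal. Stra6l, Aldh1a1 and Hic1 passed the floor in elicited macrophages alone and so could only be higher. Among the 8 genes above it on both arrays, 1 was higher and 1 lower, and with hybridisation controls 2 of the 11 were higher. Stra6l, a transporter of retinol, was at least 37.0-fold higher, with 3042 in elicited and 66.1 in resident macrophages. Aldh1a1, a retinaldehyde dehydrogenase, was at least 4.48-fold higher, and Dhrs3, a retinaldehyde reductase, 2.12-fold. Aldh1a2, another retinaldehyde dehydrogenase, went the other way and was 1.99-fold lower, with 333 in elicited and 663 in resident macrophages. Gata6, a factor that retinoic acid induces in resident peritoneal macrophages, was 4.44-fold lower, with probe sets from -2.35 to -0.33. Among 7 genes of vitamin D and thyroid hormone handling above the floor, 1 was at least 2-fold higher (14.3%, against 8.04% of all genes). None was at least 2-fold lower, against 11.8% of all genes, and the median was -0.06 (-0.28 to 0.33 over the scalings). Dio2, the deiodinase that activates thyroid hormone, was the higher gene, with 346 in elicited and 110 in resident macrophages (3.14-fold). Its 3 probe sets ran from 1.65 to 4.45. The antimicrobial peptide gene Camp passed the floor in resident macrophages alone, with 11.1 in elicited and 112 in resident macrophages. It was at least 1.37-fold lower, a bound of -0.45. The amino acid and thyroid hormone transporter gene Slc16a10 (0.38) and the sterol hydroxylase gene Cyp27a1 (-0.29) were within 2-fold.

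Nr3c1, the glucocorticoid receptor, had a log2 ratio below 0 in every probe set above the floor. The brightest of these 5 had signals of 1260 in elicited and 2168 in resident macrophages (1.72-fold lower, log2 ratio -0.78). The others gave -0.87, -0.90, -1.16 and -1.52, so that 2 of 5 passed 2-fold. The sixth was under the floor. Over the scalings the brightest ran from -1.12 to -0.47. Esr1, the alpha oestrogen receptor, had 173 in elicited and 271 in resident macrophages (-0.64), and its second probe set above the floor gave a bound of -0.57.

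Glucocorticoid target genes went both ways. All 14 were above the floor, with 5 at least 2-fold higher (35.7%, against 8.04% of all genes) and 5 lower (35.7%, against 11.8%). The 5 lower genes became 2 with equal medians and 3 with quantile normalization or loess, while 5 were higher each time. Cd163 and Zbtb16, both lower, passed the floor in resident macrophages alone. The median of 0.12 had no settled sign over the scalings (-0.21 to 0.43). Anxa1, the anti-inflammatory protein annexin A1, was 3.78-fold higher by its brightest probe set, with 40696 in elicited and 10766 in resident macrophages. Its other probe set gave 0.64. Tsc22d3, the leucine zipper protein GILZ, was 3.67-fold higher, with 3 probe sets from 0.06 to 2.08, and the phosphatase gene Dusp1 was 3.23-fold higher. Cd163, the haemoglobin scavenger receptor, was at least 3.34-fold lower, with 6.50 in elicited and 274 in resident macrophages. Fkbp5, a chaperone that glucocorticoids induce in many cells, had 327 in elicited and 452 in resident macrophages.

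The receptors of the circadian clock were all lower. REV-ERB receptors, from Nr1d1 and Nr1d2, repress the clock gene Arntl, and ROR-alpha, from Rora, activates it through the same DNA elements. Nr1d2 had signals of 2524 in elicited and 5341 in resident macrophages, 2.12-fold lower, and its second probe set gave -1.52. Nr1d1 had 26.0 in elicited and 166 in resident macrophages, at least 2.02-fold lower. Rora had 319 in elicited and 786 in resident macrophages, 2.46-fold lower by the brightest of its 7 probe sets above the floor. All 7 were below 0, from -1.30 to -0.10, and 2 of them passed 2-fold. Of the 7, 6 were above the floor on both arrays, and the other passed it in resident macrophages alone and could only be below 0. With equal medians none of the 3 genes passed 2-fold (-0.77 for Nr1d2, -0.86 for Nr1d1 and -0.99 for Rora), and they stayed below 0 under each scaling.

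The RefSeq promoter windows of Nr1d1 (chr11:98775328-98775627, minus strand, GRCm38.p6) and Nr1d2 (chr14:18239057-18239356, minus strand) are shown because this pair of related receptors was lower together. Capitals mark AGGTCA.
Nr1d1: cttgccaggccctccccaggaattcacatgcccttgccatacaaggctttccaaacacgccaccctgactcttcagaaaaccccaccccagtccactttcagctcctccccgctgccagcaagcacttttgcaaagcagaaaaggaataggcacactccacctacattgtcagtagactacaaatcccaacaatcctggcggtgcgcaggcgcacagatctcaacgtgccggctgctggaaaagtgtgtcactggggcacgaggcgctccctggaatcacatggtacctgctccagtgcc
Nr1d2: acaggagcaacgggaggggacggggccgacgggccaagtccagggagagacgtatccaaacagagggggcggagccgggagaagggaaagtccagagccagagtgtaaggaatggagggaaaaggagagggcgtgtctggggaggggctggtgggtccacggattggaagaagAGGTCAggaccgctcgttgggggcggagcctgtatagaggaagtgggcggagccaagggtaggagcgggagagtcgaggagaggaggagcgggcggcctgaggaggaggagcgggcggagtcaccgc
The hexamer was found at position -77 from the start of Nr1d2 and not in the window of Nr1d1. The E-box CACGTG, the site of the clock's activators, was in neither window, and TTATGTAA, a D-box, was in neither. The E-box was in 7.15% and the D-box in 0.938% of all 32851 windows. Of 14 clock genes with windows, 5 held an E-box (Bhlhe41, Ciart, Cry1, Per1 and Tef) and 1 a D-box (Per3). Counted by window, as for the shares of all windows, 6 of the 22 clock gene windows held an E-box and 1 a D-box. Among the 28 genes of the set with windows, Rara alone had an E-box.

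Among other clock genes, 6 were at least 2-fold lower. Of 18 listed, 14 were above the floor, so that 42.9% were lower, against 11.8% of all genes, 0 were higher, 12 lay below 0, and the median was -0.92. Per3 had signals of 146 in elicited and 836 in resident macrophages (5.72-fold lower), with 5 probe sets from -2.70 to -1.02. Dbp, an output factor of the clock, was 2.78-fold lower, Per2 at least 2.46-fold and Clock 2.46-fold. The 2 probe sets of Per2 above the floor gave -1.30 and -0.63, and the 4 of Clock ran from -1.88 to -0.87. Arntl, the partner of Clock, lay at -0.56, and Cry1, a repressor, at 0.33. The median ran from -1.20 to -0.37 over the scalings, with 3 to 9 genes lower and 0 higher. Of these 14 genes, 11 passed the floor in elicited macrophages, so the other 3 (Per2, Bhlhe41 and Ciart) could only be lower, and 4 of the 11 above the floor on both arrays were at least 2-fold lower.

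**Figure D5:**
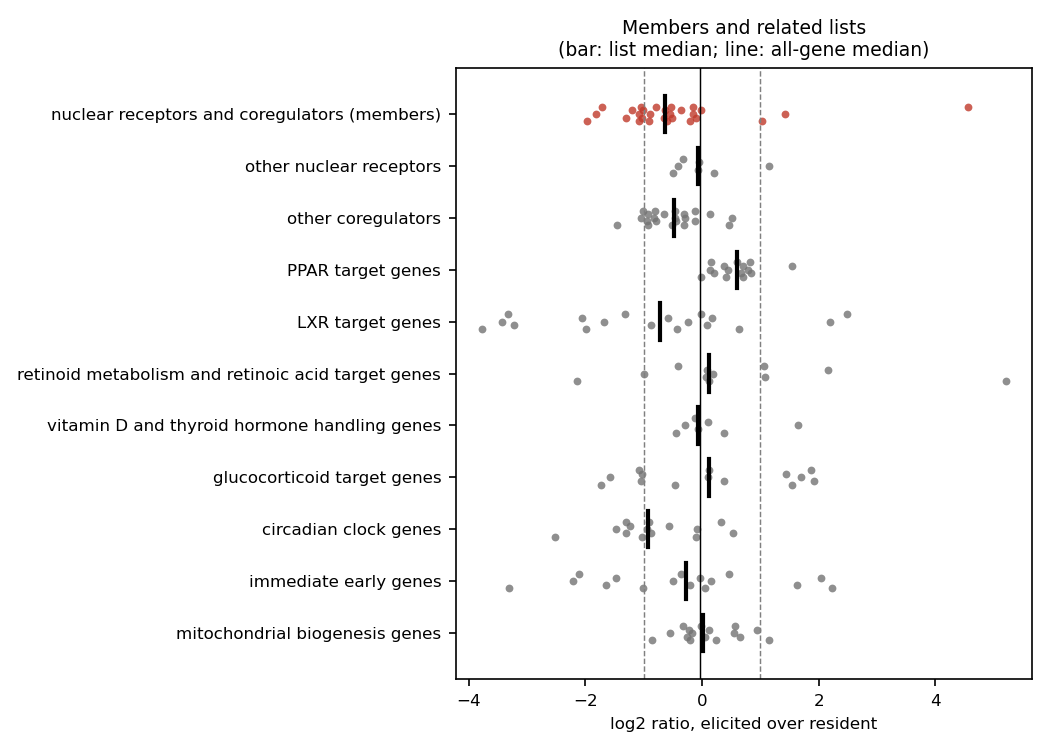
Log2 ratio of elicited over resident signal for the 28 genes of the set (red) and for genes of 10 related lists (grey) above the floor on at least 1 array; thick bars are list medians, the solid line is the median of all genes (-0.03) and dashed lines mark 2-fold. The medians of the set (-0.64), the LXR targets (-0.72) and the clock genes (-0.92) lie to the left, and that of the PPAR targets (0.60) to the right.

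Orphan receptors differed among themselves. Nr2c2, a testicular orphan receptor, had signals of 906 in elicited and 1913 in resident macrophages, 2.11-fold lower, and it did not pass 2-fold with equal medians (-0.77), quantile normalization (-0.98) or loess (-0.97). Of its 5 probe sets above the floor, 4 were at least 2-fold lower, down to a bound of -1.98, and 1 was dim and pointed the other way (0.18, with 93.4 on the elicited array). Its close relative Nr2c1 had 444 in elicited and 494 in resident macrophages (-0.16), with 4 probe sets from -1.10 to -0.16. Nr2f6 had 433 in elicited and 438 in resident macrophages, and its second probe set gave 0.36. Esrra, the oestrogen-related receptor that controls mitochondrial genes, had 779 in elicited and 834 in resident macrophages (-0.10). The signs of Nr2c1, Nr2f6 and Esrra turned over the scalings, up to 0.19, 0.35 and 0.21.

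The NR4A receptors are induced within minutes to hours by many stimuli and act without a known classical ligand. Nr4a1 had signals of 118 in elicited and 464 in resident macrophages, 3.92-fold lower (log2 ratio -1.97, and -2.31 to -1.47 over the scalings). It is known for its role in patrolling monocytes and for restraint of inflammatory genes. Nr4a3 had 6.61 in elicited and 153 in resident macrophages, at least 1.86-fold lower. The 6 probe sets of Nr4a2 were under the floor apart from 1, with 90.0 on the resident array, which is below 92.7.

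Other immediate early genes differed in both directions. Of 17 listed, 16 were above the floor, with 3 at least 2-fold higher (18.8%, against 8.04% of all genes) and 6 lower (37.5%, against 11.8%; median -0.28, turning to 0.03 with equal medians). Egr3 was at least 9.89-fold lower, with 47.4 in elicited and 813 in resident macrophages. The stress factor gene Atf3 was 4.67-fold higher, with 13770 in elicited and 2946 in resident macrophages, Ier3 was 4.61-fold lower and Klf2 4.31-fold lower. Fos and Jun were 4.13-fold and 3.11-fold higher, and Egr1 had 833 in elicited and 802 in resident macrophages.

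The coregulators above the floor lay below 0 apart from Ncoa4. Of 7 above the floor, 4 were at least 2-fold lower (57.1%, against 11.8% of all genes) and 1 higher (14.3%, against 8.04%), with a median log2 ratio of -1.04, against -0.56 for the 21 receptors above the floor. The difference between these medians was not tested. Among the p160 coactivators, which bridge receptors to histone acetyltransferases, Ncoa1 had signals of 762 in elicited and 1755 in resident macrophages (2.30-fold lower), and its second probe set above the floor gave -1.42. Ncoa2 had 1024 in elicited and 2105 in resident macrophages (2.06-fold lower), with -0.74 from its next brightest probe set. Ncoa3 had 878 in elicited and 1356 in resident macrophages (-0.63), and -0.19 from its second probe set. Ncoa6, a subunit of a histone methyltransferase complex, had 863 in elicited and 1625 in resident macrophages (-0.91). These ratios stayed below 0 under each scaling, and with equal medians none of the 4 genes passed 2-fold.

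Ncoa4 was higher in both of its probe sets. It was first described as a coactivator and is known as the receptor that carries ferritin to autophagy, which releases iron. The brightest probe set had signals of 15231 in elicited and 5666 in resident macrophages (2.69-fold), and the other had 7354 in elicited and 3587 in resident macrophages (2.05-fold). The log2 ratio of the brightest ran from 1.09 to 1.74 over the scalings.

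Nrip1, also called RIP140, docks on ligand-bound receptors, represses their metabolic targets and acts with NF-kappaB in macrophages. Its 6 probe sets all gave ratios below 0, and 5 of them passed 2-fold. Only 3 of the 6 were above the floor on both arrays. The rest passed it in resident macrophages alone and could only be below 0. The brightest had signals of 489 in elicited and 1729 in resident macrophages, 3.54-fold lower. Another had 234 in elicited and 1098 in resident macrophages, 4.69-fold lower. A further one had 191 in elicited and 562 in resident macrophages, 2.94-fold lower. Of the others, 2 were at least 3.07-fold and 4.55-fold lower, and 1 dim probe set gave a bound of -0.27. Agreement between probe sets checks the probes and not the animals.

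The PGC-1 coactivators switch on mitochondrial genes with oestrogen-related receptors and PPARs. Ppargc1b had signals of 210 in elicited and 688 in resident macrophages, 3.27-fold lower (log2 ratio -1.71, and -2.05 to -1.31 over the scalings). Ppargc1a was under the floor in all 5 probe sets on both arrays. Of 16 genes of mitochondrial biogenesis and respiration, all above the floor on both arrays, 1 was at least 2-fold higher (6.25%, against 8.04% of all genes). None was at least 2-fold lower, against 11.8% of all genes, and the median was 0.02 (-0.32 to 0.33 over the scalings). The higher gene was Tfb1m, a mitochondrial rRNA methyltransferase, with 951 in elicited and 429 in resident macrophages (2.22-fold). Cycs, cytochrome c, was 1.92-fold higher, Idh3a of the citric acid cycle 1.57-fold higher, and Gabpa, a factor that drives respiratory genes, 1.81-fold lower. The 3 probe sets of Idh3a pointed in both directions, from -0.53 to 0.65.

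Relatives outside the set were read for comparison. Of 25 other nuclear receptors, 21 had a probe set and 7 were above the floor. Of these, 1 was at least 2-fold higher (14.3%, against 8.04% of all genes) and 0 were lower (against 11.8%). Their median was -0.06 (-0.23 to 0.17 over the scalings). Only 2 of the 7, Rarb and Nr6a1, were above the floor on both arrays, with a median of -0.37. The rest passed it on 1 array alone, which fixed the direction of their ratios. The higher gene, Esrrb, another oestrogen-related receptor, was among these. It had 182 in elicited and 56.2 in resident macrophages, at least 2.22-fold higher. Nr3c2, the mineralocorticoid receptor, was at least 1.41-fold lower, Rarb, the beta retinoic acid receptor, 1.32-fold lower and Nr6a1, an orphan receptor of germ cells, 1.26-fold lower. Of 22 other coregulators above the floor, 3 were at least 2-fold lower and 0 higher, a share of 13.6% against 11.8% of all genes, while 19 of 22 lay below 0 and the median was -0.49 (-0.82 to -0.18 over the scalings). The count of lower genes was 9 of 22 with hybridisation controls, against 19.4% of all genes. It was 1 of 22 with each of the other 3 scalings, against 7.34% to 8.84% of all genes. Ncoa7 had 457 in elicited and 1256 in resident macrophages (2.75-fold lower). Nsd1, a histone methyltransferase, was 2.07-fold lower, Tbl1x, a subunit of the NCoR complex, 2.01-fold and Med14, a subunit of Mediator, 1.91-fold. The 3 probe sets of Nsd1 ran from -1.36 to -0.41, and the 4 of Med14 from -0.93 to 0.04. Hdac3, the deacetylase of the NCoR complex, had 1287 in elicited and 902 in resident macrophages, a log2 ratio of 0.51.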

How the data were processed

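RNA of 1 elicited and 1 resident macrophage population was read on 1 Affymetrix 3' expression array each. The deposited values are linear signal intensities that the authors computed with MAS5 (so named per the submitters' processing notes), with no version or detection calls known here. The mean after trimming 2% of the 45101 probe sets at each end was 500.0 on both arrays, so they share a scale, and no further normalization was applied. Gene names came from the annotation of the platform and were brought up to date through gene IDs in RefSeq's GRCm38.p6 table (34754 of 34958 probe sets with 1 gene matched). Another 932 probe sets naming several genes and 9211 naming none were left out, as were array controls.

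From these, log2 ratios of elicited over resident signal were computed per probe set, with the floor, the brightest probe set per gene and the 2-fold threshold as described above. With 1 array a group no test was run, and the number of arrays limits the precision. Every gene of the set is named, with up to 4 genes of the largest absolute ratio in each of 10 pathway and family lists; 9 cell type lists were read alongside and are given as counts and summed signals, with a few of their genes. Further list genes were named after their values were seen. The members and lists were chosen with earlier results of these data known. Cell type lists not given above were neutrophil (2 of 3 lower, summed signals 8405 on the elicited and 12043 on the resident array) and eosinophil markers (1 of 2 higher, 1145 and 543). Promoter sequences are from RefSeq. The calculation was tested on simulated data, with planted differences well above 2-fold and no difference in scale between the arrays. Differences near 2-fold were therefore not covered by it. Python 3.11.15, numpy 2.4.6, pandas 2.3.3 and matplotlib 3.10.9 were used.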

Additional observations from a re-analysis of the deposited data

How the results depend on the processing

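The count of genes at least 2-fold lower was 10 as deposited and moved by over 1.5 times under 3 of 13 alternatives, to 3 with equal medians, 5 with quantile normalization and 5 with loess (span 0.4); it was 8 to 14 under the others. The count of higher genes was 3, and 1 when only probe sets with plain names were used, which drops Pparg and Nr1h3 because their only probe sets are named for alternative transcripts; it was 2 or 3 elsewhere. The median log2 ratio of the set stayed between -0.94 and -0.33. Of the 13 genes at least 2-fold apart, 5 stayed past 2-fold under every alternative that gave a value (Pparg, Ncoa4, Nr4a1, Nrip1 and Ppargc1b). The smallest log2 ratio of Pparg was 3.54, with the floor at the 99th percentile (a signal of 174). None of these 13 changed direction under the alternatives. The spiked hybridisation controls had 1.26-fold more signal on the elicited array (18 of 18 probe sets); the cause was not tested. No paired analysis was possible because each group had 1 array. Dim genes such as Ppara, Rara, Vdr, Nr1d1, Nr4a2 and Nr4a3 lay near or under background on at least 1 array, which limits their ratios.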

Other observations

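A single further probe set named a gene of the set together with another gene, Ppard with 1810013A23Rik. It was left out, and its signals of 54.9 in elicited and 28.8 in resident macrophages were both under the floor. The 3' to 5' signal ratio, a sign of RNA quality, was 1.22 in elicited and 1.19 in resident macrophages for beta-actin, and 0.600 and 0.587 on the same arrays for Gapdh. When all genes that passed the floor on both arrays were cut into 10 bins of 982 genes by mean signal, the median log2 ratio was lowest in bin 3 (-0.24, with 4 genes of the set) and highest in the brightest bin (0.41, with 1 gene of the set).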
